A study of Drosophila melanogaster with 8 samples.

Results

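The Jonah genes of Drosophila melanogaster encode a family of secreted serine proteases, and 10 of them were followed here by their gene names: Jon25Bi, Jon25Bii, Jon25Biii, Jon44E, Jon65Aiii, Jon65Aiv, Jon66Ci, Jon66Cii, Jon74E and Jon99Ci. Of these 10 genes, 9 were among the 7671 genes with values, and Jon25Bii was not analysed here. The members were picked by gene name, with earlier results of these data known. All 9 had lower mean levels in intestines of flies fed N-acetyl-D-glucosamine (GlcNAc) than in controls, 5 of the 9 without any overlap between the 4 control and the 4 GlcNAc libraries (9.24% of all genes), and only Jon65Aiv turned to a change above 0 under another scaling, quantile normalization. Jon25Bi, Jon66Ci and Jon66Cii were called lower at an adjusted p below 0.05, as were 6.6% of all genes.

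RNA-seq libraries came from dissected intestines of mated females that were 7 days old, with 4 control and 4 GlcNAc samples described as independent. All flies carried UAS-mCD8::GFP and hsFLP, a tub-GAL4 chromosome over a wild-type one, and FRT82B tub-GAL80 over FRT82B. Thus both groups shared the ubiquitous tubulin promoter driving GAL4 and its repressor GAL80, a setup used to mark clones. Both were calorie-restricted, with food at a dilution of 0.25 for 24 hours, and only the GlcNAc group had 0.1 M GlcNAc in it. GlcNAc enters the hexosamine biosynthesis pathway, and the experiment asked how transcription in the intestine responded to it. The sample labels name glucosamine as the treatment, whereas the titles and the methods name GlcNAc. They also name larvae as the source, whereas the tissue field gives intestine and the methods name adult females.

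Jonah proteases belong to the chymotrypsin-like serine endopeptidases. They are made as inactive precursors with a signal peptide and, like the trypsins, are produced mainly by enterocytes of the midgut, from which they reach the gut lumen and cut dietary protein. The number and letter in each name give the cytological band of the gene, so that genes with the same number and letter lie in the same small cluster. The role given for most single members rests on their sequence, and no substrate is assigned to a member here.

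The members lie on 4 chromosome arms of the BDGP6 assembly. Jon25Bi (FBgn0020906, chromosome 2L, 4954279 to 4955144) and Jon25Biii (FBgn0031653, 2L, 4949941 to 4950767) are on the minus strand with Jon25Bii between them. Jon65Aiv (FBgn0250815, 3L, 6039155 to 6040135) and Jon65Aiii (FBgn0035665, 3L, 6050757 to 6051690) are on the plus strand, 10621 nt apart. Jon66Ci (FBgn0035886, 3L, 8391540 to 8392377, plus strand) and Jon66Cii (FBgn0035887, 3L, 8392820 to 8393649, minus strand) end towards each other across 442 nt. Jon74E (FBgn0023197, 3L, 17548077 to 17549127) and Jon99Ci (FBgn0003358, 3R, 29925226 to 29926189) are on the minus strand. Jon44E (FBgn0001285, 2R, 8691448 to 8692844, plus strand) overlaps CG8586 on the opposite strand, and the reads were counted by strand. The genes are compact, with 1 to 3 exons and coding sequences of 774 to 822 nt.

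The 9 members differed far more in level among themselves than between diets. Per length, as RPKM (reads per kilobase of exon, scaled to library size), Jon65Aiv stood at 37974 ± 2509 in control (SD, n = 4) and Jon44E at 1.25 ± 0.353. Jon65Aiii followed Jon65Aiv at 27662 ± 2945 RPKM. Their ranges did not overlap in either group. Jon25Biii at 7452 ± 958 and Jon74E at 6083 ± 499.7 RPKM came next, and these neighbours overlapped. The following pair, Jon25Bi at 1722 ± 246 and Jon99Ci at 1474 ± 189.9 RPKM, overlapped as well. Jon66Ci at 289.9 ± 79.8 RPKM, Jon66Cii at 9.79 ± 4.59 RPKM and Jon44E were each apart from their neighbours. In GlcNAc the order was the same, with the same overlaps, from 29645 ± 2562 RPKM for Jon65Aiv to 0.748 ± 0.262 RPKM for Jon44E, and it was also the same with coding length in place of exon length. Adjacent genes could thus stand far apart, since Jon66Ci was 29.6-fold above its neighbour Jon66Cii per length in control, whereas Jon65Aiv was 1.37-fold above Jon65Aiii.

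**Figure D1:**
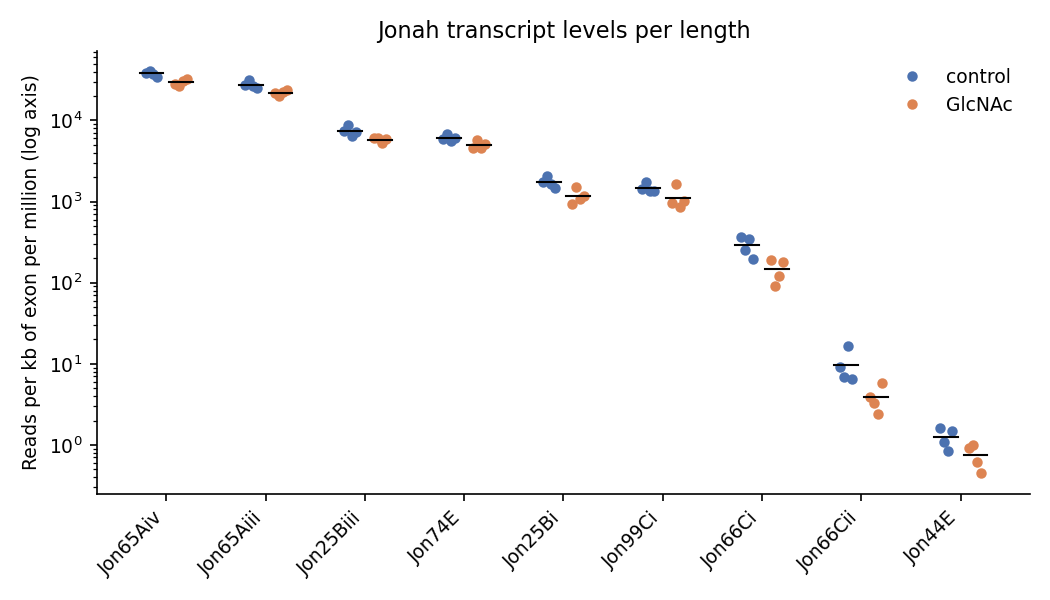
Level per length of the 9 Jonah members, as RPKM on a log axis, with 1 point per library, control in blue, GlcNAc in orange and black lines at the means of 4 libraries. The members run from 37974 for Jon65Aiv to 1.25 for Jon44E in control, and each GlcNAc mean lies below its control mean.

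Jonah RNA took up a sizeable share of the libraries. The 9 members together took 7.14, 7.66, 7.16 and 6.76% of the reads on tested genes in control libraries 1 to 4, and 5.68, 5.67, 5.82 and 6.27% in GlcNAc libraries 1 to 4. The groups did not overlap, with means of 7.18 ± 0.369% and 5.86 ± 0.283% (SD, n = 4). The nearest libraries were control 4 (95% Wilson interval 6.75 to 6.78%) and GlcNAc 4 (6.26 to 6.29%). These intervals cover counting error only. No test was made on this sum, because the members were chosen with earlier results of these data known. Jon65Aiv and Jon65Aiii supplied most of the difference between these means, 48.3% and 30.7% of it, and Jon25Biii and Jon74E a further 8.81% and 5.99%. Of the Jonah reads, 79.9 ± 0.902% were on Jon65Aiv and Jon65Aiii in control and 80.1 ± 2.61% in GlcNAc, and the groups overlapped. In whole intestines, fewer cells of a type and less RNA per cell cannot be told apart.

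**Figure D2:**
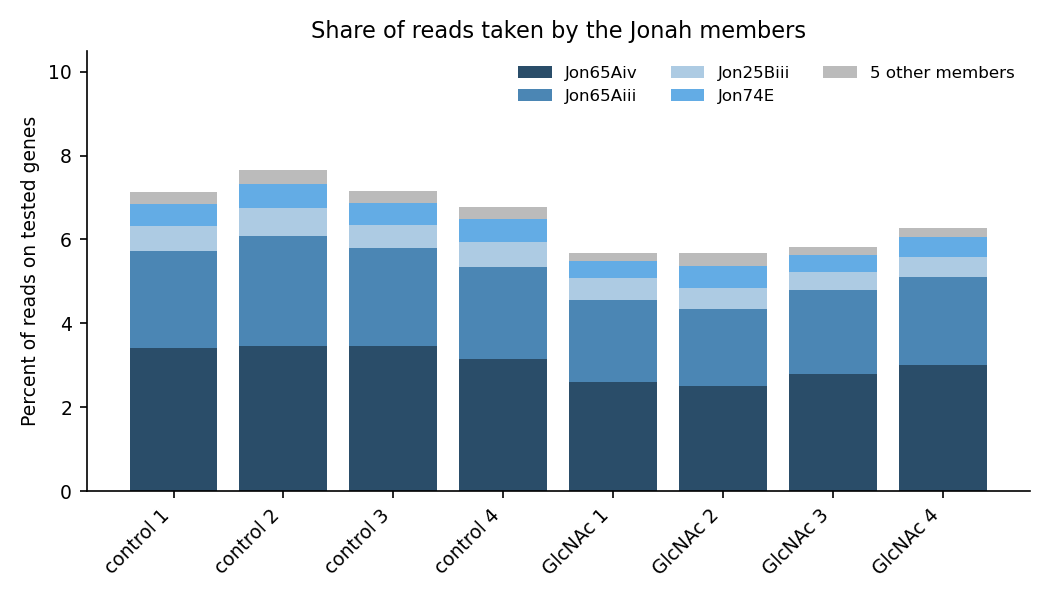
Percent of the reads on tested genes that fell on the 9 Jonah members, stacked by member, for each of the 8 libraries. The bars reach 6.76 to 7.66% in control and 5.67 to 6.27% in GlcNAc, and Jon65Aiv with Jon65Aiii fills most of each bar.

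Levels between libraries are given from here on as CPM (reads scaled to the size of the library), and changes as differences of mean log2 CPM, GlcNAc minus control. The test was limma's, with Benjamini-Hochberg adjustment over all 7671 genes. By it, 6.6% of all genes were lower and 8.75% higher in GlcNAc at an adjusted p below 0.05. The highest GlcNAc library lay below the lowest control for 9.24% of all genes. The same comparison by limma's voom on the recovered reads, which weights each value by its expected precision, called 6.66% of all genes lower.

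Jon65Aiv had the highest CPM of the tested genes when averaged over the 8 libraries, although other genes stood above it in control 2, control 4, GlcNAc 3 and GlcNAc 4. It stood at 34886, 36877, 34154 and 31397 CPM in controls 1 to 4, and at 25634, 24344, 27573 and 29647 CPM in GlcNAc 1 to 4. The groups did not overlap, with GlcNAc 2 the lowest and control 2 the highest library. Its log2 change was -0.36 (SE 0.183, 95% interval -0.77 to 0.05) and did not pass the test (adjusted p = 0.239). After quantile normalization, which sets all libraries to a common distribution, the log2 change of this gene was 0.0589, and those of the other abundant members shrank to -0.07 for Jon65Aiii, -0.18 for Jon25Biii and -0.11 for Jon74E.

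Jon65Aiii, the fourth by CPM averaged over the 8 libraries, went through the libraries in the same order. Its levels were 23723, 27945, 23009 and 22138 CPM in controls 1 to 4, and 19191, 17579, 19696 and 20741 CPM in GlcNAc 1 to 4. Again the groups did not overlap, and control 2 stood above the other controls. The log2 change was -0.32 (SE 0.167, 95% interval -0.69 to 0.05, adjusted p = 0.245). For this pair the call depended on how the spread was modelled. With voom both passed the test, Jon65Aiv at an adjusted p of 0.0225 and Jon65Aiii at 0.0443, at log2 changes of -0.36 and -0.32.

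Jon25Biii and Jon74E formed the next level. Jon25Biii had 6107, 7231, 5319 and 5994 CPM in controls 1 to 4, and 4982, 4998, 4305 and 4824 CPM in GlcNAc 1 to 4. The groups did not overlap, although control 3 came close to GlcNAc 2. Its log2 change of -0.36 (SE 0.123, 95% interval -0.63 to -0.09) had an adjusted p of 0.0777, and 0.0351 with voom. Jon74E had 5336, 6125, 5064 and 5446 CPM in controls 1 to 4, and 4161, 5114, 4080 and 4660 CPM in GlcNAc 1 to 4. Here GlcNAc 2 lay above control 3, so the groups overlapped by a single pair of libraries. The log2 change was -0.29 (SE 0.116, 95% interval -0.55 to -0.03) with an adjusted p of 0.133.

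Jon25Bi, the neighbour of Jon25Biii, fell in GlcNAc by the test. It stood at 1505, 1778, 1411 and 1272 CPM in controls 1 to 4, and at 798, 1313, 922 and 1026 CPM in GlcNAc 1 to 4. Only GlcNAc 2 reached into the control range, above control 4. The log2 change was -0.57 (SE 0.152, 95% interval -0.91 to -0.23, adjusted p = 0.0301). This call was narrow, since the adjusted p was between 0.0559 and 0.0819 without control 1, 2 or 3 or without GlcNAc 1, 3 or 4.

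Jon99Ci, at a level like that of Jon25Bi, showed the widest spread of the abundant members. Its levels were 1305, 1589, 1224 and 1230 CPM in controls 1 to 4, and 863, 1482, 766 and 910 CPM in GlcNAc 1 to 4. GlcNAc 1, 3 and 4 lay below all controls, and GlcNAc 2 lay above controls 1, 3 and 4. The log2 change was -0.45 (SE 0.184, 95% interval -0.86 to -0.04, adjusted p = 0.139). Without GlcNAc 2 it was -0.65, with an adjusted p of 0.00361.

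The neighbours Jon66Ci and Jon66Cii had the largest changes among the members, and both fell by the test. Jon66Ci had 307, 211, 289 and 164 CPM in controls 1 to 4, and 160.4, 75.3, 101 and 152 CPM in GlcNAc 1 to 4. The groups were apart by a narrow gap between control 4 and GlcNAc 1. Its log2 change was -1.01 (SE 0.259, 95% interval -1.59 to -0.44, adjusted p = 0.0247). Jon66Cii was scarce, with 19 to 122 reads in a library. It stood at 7.65, 5.76, 13.6 and 5.45 CPM in controls 1 to 4, and at 3.24, 2.76, 1.99 and 4.83 CPM in GlcNAc 1 to 4. No GlcNAc library reached the lowest control, and control 3 stood well above the other controls. The log2 change was -1.31 (SE 0.331, 95% interval -2.05 to -0.58, adjusted p = 0.0233). The adjusted p of Jon66Ci was 0.0613, 0.0716 and 0.0603 without control 1, control 3 and GlcNAc 3, and that of Jon66Cii was 0.0511 and 0.0555 without GlcNAc 1 and GlcNAc 3.

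Jon44E had the fewest reads of the members. It had 6 to 21 reads in a library, with 2.24, 1.51, 1.17 and 2.06 CPM in controls 1 to 4, and 1.29, 1.41, 0.866 and 0.622 CPM in GlcNAc 1 to 4. Control 3 lay below GlcNAc 1 and GlcNAc 2, so the groups overlapped. The log2 change of -0.77 had a 95% interval of -1.55 to 0.01 (SE 0.351, adjusted p = 0.190). With a pseudocount of 2 CPM the change was -0.30, with the same adjusted p.

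In all, 3 of the 9 members, or 33.3%, were called lower against 6.6% of all genes, and 0 were called higher. At an unadjusted p below 0.05, limma gave 6 members lower, beside 12.4% of all genes, and 0 higher. With voom 6 of the 9 were called lower, the 3 of the main test with Jon25Biii, Jon65Aiii and Jon65Aiv, against 6.66% of all genes, and 0 were called higher. The groups did not overlap for 5 of the 9, or 55.6%, against 9.24% of all genes. The median log2 change of the members was -0.45, beside 0.01 over all genes, of which 47.2% were below 0. Genes with many reads leaned lower in general, and the abundant members are to be read beside them. Among the 152 genes whose mean reached 1000 CPM, 68.4% had a log2 change below 0, the median was -0.11, 15.8% had groups that did not overlap with GlcNAc lower, and 11.8% were called lower. These genes included Jon65Aiv, Jon65Aiii, Jon25Biii, Jon74E, Jon25Bi and Jon99Ci, with yip7, Jon99Cii and Jon99Fii. Of the members among them only Jon25Bi was called lower. Jon66Ci and Jon66Cii, the other members called, lay below 1000 CPM. The count of 3 was itself sensitive to single libraries. It was 1 without control 1, without control 3 or without GlcNAc 1, and 0 without GlcNAc 3, where 4 members were lower at an unadjusted p below 0.05. In these fits, in the same order, 423, 455, 402 and 418 of the 7671 genes were called lower.

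In the main fit the size of the change ran against the level. The 4 members with the most reads had log2 changes of -0.29 to -0.36, Jon25Bi and Jon99Ci -0.57 and -0.45, and the 3 with the fewest reads -0.77 to -1.31. Spearman's rho of mean log2 CPM against the log2 change was 0.82 over the 9 members, and 0.86 over 15 genes when the other Jonah genes and yip7 were added. It was -0.11 over all 7671 genes. The pattern depended on the scarce genes. With a pseudocount of 2 CPM the changes of Jon44E and Jon66Cii were -0.30 and -0.93, and rho was 0.33 over the 9 members and 0.61 over the 15 genes. After quantile normalization, in contrast, rho was 0.92 over the 9 members and 0.94 over the 15 genes. These values describe genes measured in the same 8 libraries, which are not independent, and the standard errors were 0.259 to 0.351 for the 3 members with the fewest reads against 0.116 to 0.184 for the other 6.

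**Figure D3:**
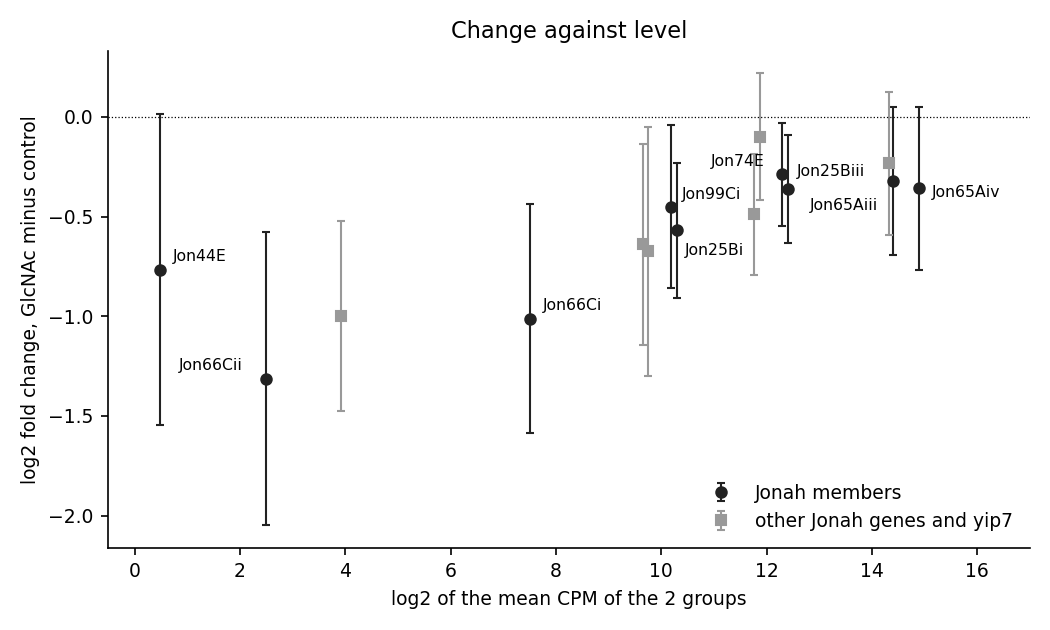
Log2 change, GlcNAc minus control, with its 95% interval from limma against the log2 of the mean CPM of the groups, for the 9 Jonah members in black and 6 related genes in grey. The changes reach from -0.29 for Jon74E to -1.31 for Jon66Cii, and the larger ones lie at the lower levels with the wider intervals.

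Neighbouring genes were compared within each library, which takes the scaling between libraries out. The log2 ratio of Jon65Aiii to Jon65Aiv was -0.51 ± 0.077 in control and -0.47 ± 0.041 in GlcNAc (SD, n = 4), which makes Jon65Aiii reads 0.703 and 0.721 of those of Jon65Aiv. The difference of 0.04 did not pass a two-sided exact permutation test (p = 0.429). For Jon25Bi over Jon25Biii the log2 ratio was -2.05 ± 0.135 and -2.26 ± 0.293, a difference of -0.21 (exact permutation p = 0.314). For Jon66Ci over Jon66Cii it was 4.96 ± 0.408 and 5.26 ± 0.459, a difference of 0.30 (exact permutation p = 0.371). After Benjamini-Hochberg adjustment over the 3 pairs tested each permutation p was 0.429. The smallest p that 70 assignments allow is 0.0286 before adjustment. A single shifted pair therefore could not have passed 0.05 after adjustment unless another pair shifted too. The groups overlapped in each pair, so that no shift within a pair was seen beyond the spread between libraries.

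Library by library, the members did not move as a single block. Control 2 was the highest control for 6 members, namely Jon25Bi, Jon25Biii, Jon65Aiii, Jon65Aiv, Jon74E and Jon99Ci. GlcNAc 2 was the highest GlcNAc library for 5 members and the lowest for 3. It was highest for Jon25Bi, Jon25Biii, Jon44E, Jon74E and Jon99Ci, and lowest for Jon65Aiii, Jon65Aiv and Jon66Ci. For Jon99Ci, GlcNAc 2 lay 0.38 above the mean of the 8 libraries on the log2 scale, and for Jon66Ci it lay at -1.14 from that mean. GlcNAc 3 was the lowest GlcNAc library for Jon25Biii, Jon66Cii, Jon74E and Jon99Ci, and the highest for no member. Jon65Aiii and Jon65Aiv ranked the 4 libraries of each group in the same order, as did yip7.

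**Figure D4:**
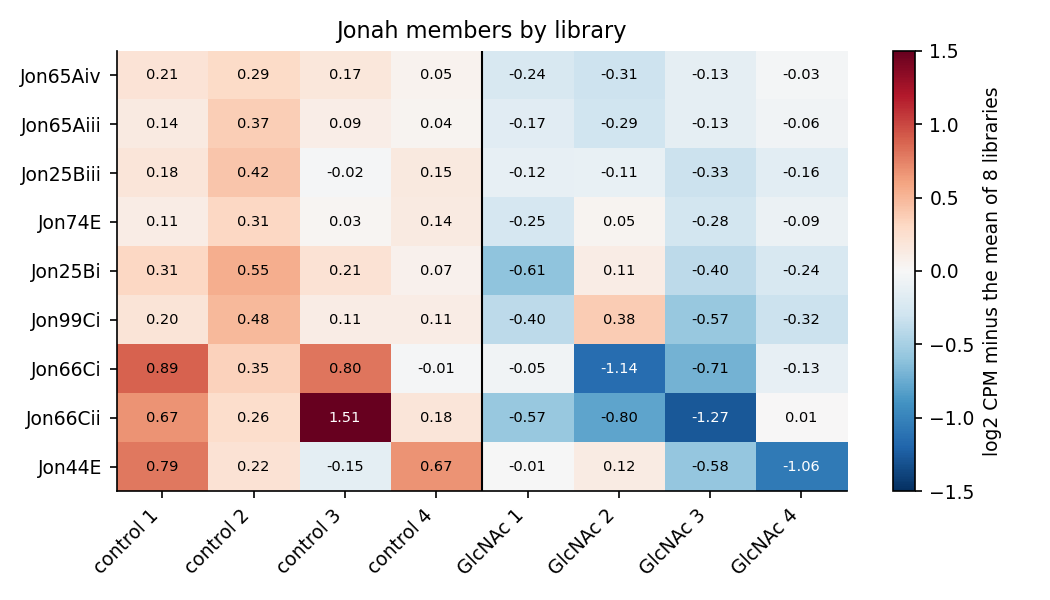
Log2 CPM of each Jonah member in each library, minus that gene's mean over the 8 libraries, with red above and blue below the mean. In GlcNAc 2, Jon99Ci stands at 0.38 and Jon66Ci at -1.14, whereas Jon65Aiv is below its mean in each GlcNAc library.

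The genes whose profiles over the 8 libraries lay closest to the mean Jonah profile were CG33127, Ugt86Dj, CG4753, CG16749 and CG11034. The measure was the root mean square distance of centred log2 CPM, over 5553 other genes whose mean reached 10 CPM, and it was 0.0648 for CG33127 and 0.0853 for CG11034. The members themselves were farther from their own mean, from 0.166 for Jon25Biii to 0.573 for Jon66Cii. CG33127 went from 1184 to 771 CPM (log2 change -0.62, adjusted p = 0.000419) and CG16749 from 1146 to 823 CPM (log2 change -0.48, adjusted p = 0.00481). Being chosen for a profile that differs between the groups, these genes give no separate evidence of a difference.

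The remaining Jonah genes with values and yip7, a serine protease gene close to Jon65Aiv, had lower means in GlcNAc as well. Of 7 such genes listed, 6 had values, and Jon65Ai was not analysed here. The changes of all 6 were below 0, except that of yip7 after quantile normalization (0.01), beside 47.2% of all genes in the main fit. Of the 6, 2 were called lower, against 6.6% of all genes. Jon99Cii fell from 4073 ± 498 to 2914 ± 481 CPM (log2 change -0.49, SE 0.136, adjusted p = 0.0358), with overlapping groups, but its adjusted p was between 0.0722 and 0.103 without control 1, 2 or 4 or without GlcNAc 1, 3 or 4. Jon99Ciii fell from 19.996 ± 3.70 to 10.3 ± 3.08 CPM (log2 change -0.9996, SE 0.214, adjusted p = 0.0107), with no overlap, and its call held without any 1 library. The others did not pass, with log2 changes of -0.64 for Jon65Aii (adjusted p = 0.0904), -0.67 for Jon99Fi (0.146), -0.23 for yip7 (0.401) and -0.10 for Jon99Fii (0.719). Without control 1 the adjusted p of Jon65Aii was 0.0210, and without control 4 that of Jon99Fi was 0.0139. With these 6 genes the Jonah share of reads was 10.3 ± 0.467% for control and 8.59 ± 0.405% for GlcNAc, without overlap of the groups.

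The trypsins are the other large group of secreted gut proteases. Of 15 listed, 11 had values, with a median log2 change of -0.36. Among the 11, 7 were called lower and 1 higher, against 6.6% and 8.75% of all genes. For 8 of the 11 every GlcNAc library lay below every control, against 9.24% of all genes, and for 1 every GlcNAc library lay above. Lower calls were thus not particular to the Jonah members, of which 3 of 9 were called. The extremes were deltaTry, which fell by 1.11 on the log2 scale (adjusted p = 0.000119), and Ser6, which rose by 0.29 (adjusted p = 0.0415). Whether trypsins and Jonah genes changed by different amounts was not tested.

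Regulators that have been named for digestive enzyme genes in the fly were taken from a list of 12, among them the activin-like ligand daw with its receptor babo, the endodermal GATA factor GATAe, and the sugar-responsive factors Mondo, bigmax and sug. Of these, 11 had values, 2 were called lower and 0 higher, beside 6.6% and 8.75% of all genes. The log2 change was below 0 for 8 of them and above 0 for 3. The zinc finger factor sug fell from 253 ± 32.9 to 131 ± 7.22 CPM (log2 change -0.94, adjusted p = 0.000137). The other gene called was bigmax, the partner of Mondo, at -0.38 (adjusted p = 0.0218). The ligand daw, at 10.01 ± 4.18 and 8.44 ± 1.33 CPM, had a log2 change of -0.16 (adjusted p = 0.775), and GATAe had -0.12 (adjusted p = 0.309).

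Markers of the cell types in the sample were read beside these values. Enterocytes, the source of the Jonah proteases, were followed by 6 genes, all with values. Of these, 0 were called lower and 1 higher (Alp4, from 7.65 ± 4.82 to 39.0 ± 22.7 CPM), beside 6.6% and 8.75% of all genes. The log2 change was below 0 for 3 of the 6 and above 0 for 3. Myo61F, with the most CPM of them, went from 2949 ± 229 to 2599 ± 185 CPM without overlap of the groups (log2 change -0.18, adjusted p = 0.253). At an unadjusted p below 0.05 limma gave 0 of them lower, beside 12.4% of all genes. At that threshold Alp4 and mex1 (log2 change 0.33) were higher. Their summed level ranged from 3889 to 4583 CPM in control and from 3469 to 3924 CPM in GlcNAc, overlapping narrowly. None of the 5 progenitor markers was called, and their summed levels ranged from 102 to 117 CPM in control and from 97.5 to 129 CPM in GlcNAc. Of 9 enteroendocrine markers 8 had values and 3 (AstA, CCHa2 and Dh31) were called higher, with sums of 217 to 278 CPM in control and 260 to 294 CPM in GlcNAc. Of 9 visceral muscle markers 1, Act57B, was called lower, beside 6.6% of all genes. Their sums ran from 1043 to 1429 CPM in control and from 883 to 1197 CPM in GlcNAc. Fat body, Malpighian tubule and ovary were each represented by 2 genes or fewer with values, and none of these was called. The sums of fat body yolk protein genes ran from 21.5 to 534 CPM within the controls alone. The part of cell makeup in the Jonah differences was not tested.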

How the data were processed

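Single-end, strand-specific RNA-seq reads were trimmed with Trimmomatic, mapped with TopHat2 (2.1.0) to the FlyBase genome and counted on exons with HTSeq by the authors, who discarded alignments of low quality and removed genes with low counts. The authors deposited log2 CPM values, with an offset of 0.5 read on scaled library sizes, for 7671 genes in 8 libraries. The deposited table also holds the authors' own fold changes, moderated t statistics (a score) and p-values, which were not used. From the steps between the lowest values the reads were recovered, and 100% of values were whole within 0.01 read. Reads on tested genes numbered 8839877 to 10326189 per library, so that counting error was small except for Jon66Cii and Jon44E.

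For the main test, limma (version 3.58.1, R 4.3.3) was fitted to the deposited log2 values with a mean-variance trend and no term but condition, with Benjamini-Hochberg adjustment over all genes at a threshold of 0.05. The p-values of limma rest on the spread between 4 samples a group, drawn towards a trend of spread with level over all genes. For Jon65Aiv the SE was 0.183 with this trend and 0.0844 without it, and for Jon65Aiii 0.167 and 0.0918. CPM means were taken after undoing the log. Neighbouring genes were compared by exact permutation over 70 assignments. RPKM used exon lengths of the BDGP6 annotation, and coordinates are from it. Reads that map equally well to several Jonah genes would have been discarded, and the similarity of the members was not computed here.

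All members, the other Jonah genes and the 5 genes nearest to the mean Jonah profile are named, and other listed genes only as counts with examples. Members and lists were chosen with earlier results of these data known. Alternatives were a 10 CPM filter, the replicate block, voom on recovered reads, unscaled library totals, quantile normalization, median centring, a pseudocount of 2 CPM, no trend, each library left out, and, added after seeing the data, totals without Jonah reads. Python 3.11.15, numpy 2.4.6 and scipy 1.17.1 were used.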

Additional observations from a re-analysis of the deposited data

How the results depend on the processing

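The number of Jonah members called lower was 3, and it was 6 with voom on the recovered reads, 4 with the replicate block, 2 without the trend, which lost Jon25Bi (adjusted p = 0.0593) and Jon66Ci (0.0575) and gained Jon65Aiv (0.0290), and 0 to 4 when each library was left out. Over all 7671 genes the lower calls in these fits numbered 506, 511, 578 and 413, and 360 to 495 with a library left out. Jon65Aiv, with the most reads, had a log2 change of 0.0589 (adjusted p = 0.844) after quantile normalization. The difference within the Jon66Ci and Jon66Cii pair was -0.073 with a pseudocount of 2 CPM. The cause was not tested. The other members kept changes below 0 under each alternative that included them (Jon44E and Jon66Cii were not in the 10 CPM filter), though under quantile normalization Jon65Aiii, Jon74E and Jon25Biii were at -0.07, -0.11 and -0.18, and the share of reads kept its direction. Calls over all genes numbered 1177, and 852 to 1111 with a library left out. Unscaled library totals gave 408 lower and 866 higher against 506 and 671, with the median change of all genes at 0.07, and quantile normalization gave 585 and 617.

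The replicate numbers were not established as pairs, since the correlations of deviations between samples with the same number were 0.21, 0.40, 0.15 and -0.06, and 4 of 8 samples correlated best with their own number. With the replicate block 1324 genes were called, and Jon99Ci joined the members called (adjusted p = 0.0176). Jon44E and Jon66Cii had the fewest reads, 6 to 21 and 19 to 122.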
